A study of Homo sapiens with 18 samples.

Results

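Chromosome 19 carries most of the human KRAB zinc finger genes, in tandem clusters. Here 258 of the 28277 genes listed were taken, namely those with the symbol ZNF followed by a number and at most 1 letter, and with their first main-chromosome entry on chr19 (hg38). A further 276 genes with such a symbol lay on other chromosomes, and 1520 other genes lay on chr19. With a gap of 1000000 bases between starts as the border, 250 of the 258 fell into 10 clusters of at least 3 genes, and 8 were single genes. From the short arm to the end of the long arm, cluster C1 held 5 members (2.82 to 2.94 Mb), C2 held 16 (7.07 to 9.79 Mb), C3 held 27 (11.48 to 12.63 Mb), C4 held 39 (19.67 to 24.13 Mb) and C5 held 6 (34.54 to 34.96 Mb). Cluster C6 held 27 (36.18 to 37.78 Mb), C7 held 3 (40.00 to 40.09 Mb), C8 held 24 (43.53 to 45.08 Mb), C9 held 43 (51.57 to 53.58 Mb) and C10 held 60 (55.48 to 58.49 Mb). RefSeq lists 246 of them as protein coding and 11 as transcribed pseudogenes, and 1, ZNF56, was not matched. In the longest open reading frame of their GENCODE transcripts, the 246 genes with a protein held 1 to 36 zinc fingers, with a median of 12.

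A zinc finger protein of this family reads DNA with a row of fingers, and many of them carry a KRAB domain at the other end. KRAB binds TRIM28 (KAP1), which brings the histone methyltransferase SETDB1 and HP1 and so silences the bound site, often a retrotransposon. The repressor domain of dCas9-KRAB comes from a protein of this family. The genes arose by repeated local duplication, so that neighbours are often close in sequence.

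The libraries are labelled as OVCAR3-KRAB, cells of an ovarian cancer line that express dCas9-KRAB, in clonal cells with a control guide (sgCtl) or with a guide to the XIST promoter (sgXIST7 or sgXIST9). Cells of each guide were grown in normoxia or spent 24 h in a chamber with 1% oxygen (hypoxia), which gives 6 groups of 3 replicates and 18 libraries. The sgCtl cells carry dCas9-KRAB as well. Each guide is represented by clonally selected cells, so that a difference between guides and a difference between clones cannot be told apart, and the labels do not say how the replicates were grown. The study calls them biological replicates without saying what differed between them, so that p-values measure the spread between these libraries, which may be partly technical.

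Total counts ranged from 11794375 to 24906936 per library. In normoxia XIST had 4213 to 11209 counts in sgCtl, 1 to 5 in sgXIST7 and 650 to 1009 in sgXIST9. In hypoxia it had 1589 to 5014, 0 to 3 and 357 to 510 counts, respectively. Of 10 markers of ovarian epithelial cancer cells, EPCAM (1787 to 5594 counts), KRT18 (1461 to 5542) and KRT8 (56 to 779) were present in all 18 libraries. PAX8 was low (18 to 131), while MUC16, KRT7, CDH1, MECOM and SOX17 did not exceed 4 counts in any library and WT1 did not exceed 14. The name of the line is thus taken from the labels, and its identity was not tested. Of 9 markers of other cells, PTPRC, CD3E and CDH5 did not exceed 1 count, whereas COL3A1 had 5639 to 24338 and CD68 had 202 to 1051. The summed level of these 9 markers was 949 to 993 CPM (counts scaled to a common library size) in sgCtl, 1016 to 1087 in sgXIST7 and 628 to 687 in sgXIST9 in normoxia, and 760 to 1009, 761 to 999.6 and 385 to 652 in hypoxia. The ovarian list summed to 352 to 388, 344 to 407 and 436 to 450 CPM in normoxia and to 297 to 348, 459 to 517 and 410 to 433 in hypoxia. The first sum rests mainly on COL3A1 and the ovarian sum mainly on EPCAM and KRT18. These sums differed between clones, and their part in the results was not tested. The 3 hypoxia libraries of replicate 3 had the lowest summed level of the chr19 ZNF genes within their groups. Without these libraries, 104 of the 113 calls of members in the 5 comparisons that involve hypoxia were kept, 9 were lost and 32 gained, and the 113 values all kept their sign. Values below come from all 18 libraries, and those without these 3 are given where they change a call described here or a count by cluster.

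The promoters below are shown because they belong to neighbouring members that changed together or in opposite directions after XIST KD. ZNF737 and ZNF626 are neighbours in C4, on the minus strand, and were both higher in the KD clones. The stretches run from 150 bases before the gene start to 30 bases after it, on the strand of the gene, in hg38, and capitals mark CpG dinucleotides. In the alignment of the first pair 152 of 184 columns were identical (82.6%), and each stretch held 8 CpG. The letters were read from hg38.
ZNF737 (chr19:20565752-20565931, minus): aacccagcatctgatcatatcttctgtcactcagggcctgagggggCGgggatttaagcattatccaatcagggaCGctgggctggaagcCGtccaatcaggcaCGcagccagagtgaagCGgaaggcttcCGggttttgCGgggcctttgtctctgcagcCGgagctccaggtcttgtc
ZNF626 (chr19:20661542-20661721, minus): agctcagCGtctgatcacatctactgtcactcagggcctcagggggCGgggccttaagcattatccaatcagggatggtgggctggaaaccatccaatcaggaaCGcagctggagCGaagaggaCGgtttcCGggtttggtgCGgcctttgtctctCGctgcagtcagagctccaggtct
ZNF415 and ZNF347 are neighbours in C9, also on the minus strand. ZNF415 was lower and ZNF347 higher in the KD clones, with 12 and 18 CpG in the stretches shown.
ZNF415 (chr19:53132881-53133060, minus): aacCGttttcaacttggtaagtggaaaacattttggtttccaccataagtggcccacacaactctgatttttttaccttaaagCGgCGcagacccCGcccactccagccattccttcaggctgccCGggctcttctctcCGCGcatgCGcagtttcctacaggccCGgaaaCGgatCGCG
ZNF347 (chr19:53159024-53159203, minus): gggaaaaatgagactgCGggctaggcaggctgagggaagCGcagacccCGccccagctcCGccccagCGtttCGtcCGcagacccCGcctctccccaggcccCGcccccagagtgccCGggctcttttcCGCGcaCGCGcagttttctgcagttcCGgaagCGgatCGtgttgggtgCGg
ZNF829 and ZNF568, in C6, start 37 bases apart on opposite strands, and both were lower in the KD clones in normoxia. The stretch between and around the starts held 8 CpG and is given on the plus strand, in which ZNF568 is transcribed.
ZNF829/ZNF568 (chr19:36916262-36916358, plus): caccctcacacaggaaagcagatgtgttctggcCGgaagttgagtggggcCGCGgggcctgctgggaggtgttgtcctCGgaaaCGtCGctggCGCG

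Over all 18 libraries, 206 of the 258 members had enough counts to be tested and 52 did not. Of the latter, 37 had at most 3 counts in each library and 11 had none. Whether a member was tested depended on its cluster. In C4, 21 of 39 members were not tested, whereas all 27 members of C6 were. Among members known from other work, ZNF93, a repressor of LINE-1 elements, had 0 to 2 counts, and ZNF208, ZNF257, ZNF99, ZNF677, ZNF671 and ZNF154 had 0 or 1 count in any library. By contrast ZNF91, a repressor of SVA retrotransposons, had 677 to 2006 counts. Others known from such work were also expressed, such as ZNF382 (304 to 787 counts), ZNF675 (118 to 716) and ZNF430 (103 to 443). ZNF264 had a mean of 100.6 CPM, and ZNF568, ZNF667 and ZNF471 are described below.

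CPM per kb of exon were used to set levels of different genes side by side. Over the tested members, the mean level ranged from 0.0318 to 42.7 CPM per kb with a median of 3.87, and 29 members stayed under 1. The highest were ZNF146 in C6 (42.7), which has fingers without a KRAB domain, ZNF121 in C2 (28.7), ZNF460 in C10 (27) and ZNF428 in C8 (23.7). In C9 the highest member was ZNF160 (18), and in C4 ZNF91 (14.0). The 10 members with most counts held 22.7% of all counts of members.

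The summed level of the 258 members was lower in both KD clones than in sgCtl in normoxia. It was 4756, 4702 and 4801 CPM in the 3 sgCtl libraries, 4057, 3937 and 4143 in sgXIST7 and 4058, 3846 and 4098 in sgXIST9. Each KD library lay below each sgCtl library, with means of 4753 ± 49.9 (SD, n = 3), 4045 ± 104 and 4001 ± 135. The same held without scaling, as the members took 0.492% to 0.515% of all counts in sgCtl, 0.414% to 0.439% in sgXIST7 and 0.396% to 0.426% in sgXIST9. In bulk libraries, less RNA per cell and fewer cells with the RNA cannot be told apart.

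**Figure D1:**
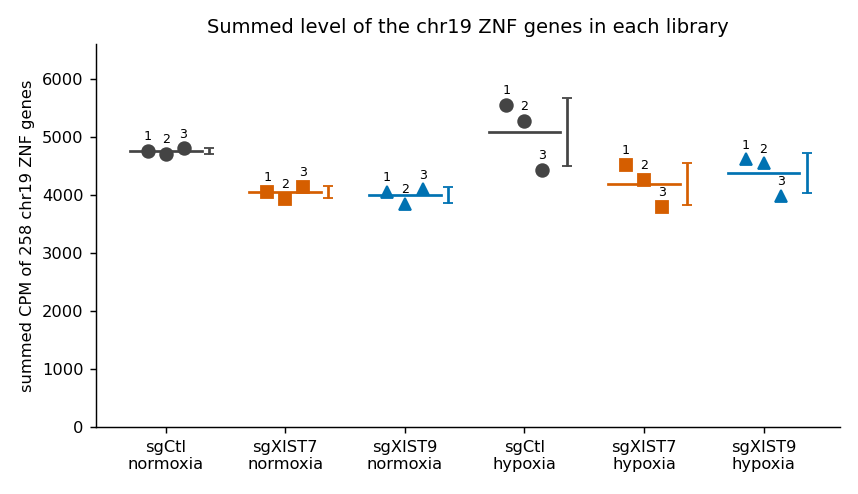
Summed CPM of the 258 chr19 ZNF genes (vertical axis, from 0) in each of the 18 libraries, by group. Points are libraries with their replicate number, lines are group means and bars are SD (n = 3); in normoxia the sgCtl libraries lie at 4702 to 4801 and the KD libraries at 3846 to 4143, and replicate 3 is the lowest of each hypoxia group.

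Many members had a lower level by a small amount, and how much each added to the summed difference was not counted. Of the 206 members tested, 149 had a lower fitted level in sgXIST7 than in sgCtl, with a median log2 fold change of -0.20. In sgXIST9, 170 were lower and the median was -0.28. Over all 14938 genes tested, the medians were -0.01 and -0.02. For the 223 tested ZNF genes of other chromosomes they were -0.12 and -0.15, and for the 845 other tested genes of chr19 they were 0.01 and -0.02. The members and the ZNF genes elsewhere thus had lower medians than other genes of the same chromosome, in 2 comparisons that share the sgCtl libraries. In sgXIST9 each of the 10 clusters had a median below 0, from -0.35 (C9, 30 of 35 members lower) to -0.04 (C5). In sgXIST7 this held for 9 clusters, and C1, with 4 tested members, had a median of 0.23.

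A gene was called where edgeR's quasi-likelihood test, adjusted over all 14938 genes, gave p under 0.01 and the log2 fold change exceeded 1 in size. In sgXIST7 6 of the 206 members were called up-regulated, against 4.67% of all genes, and 6 down-regulated, against 3.09%. In sgXIST9 6 were up-regulated, against 3.93%, and 5 down-regulated, against 3.77%. These shares of members (2.91% up and 2.91% down in sgXIST7, 2.91% and 2.43% in sgXIST9) were near or below those of all genes. The called members lay in C3, C4, C6, C8 and C9. In C10, 46 of 54 tested members were lower in sgXIST7 and 48 in sgXIST9, by amounts that edgeR did not call. Of the 54, 24.1% and 35.2% had an unadjusted p-value below 0.05, against 32.4% and 32.3% of all genes.

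**Figure D2:**
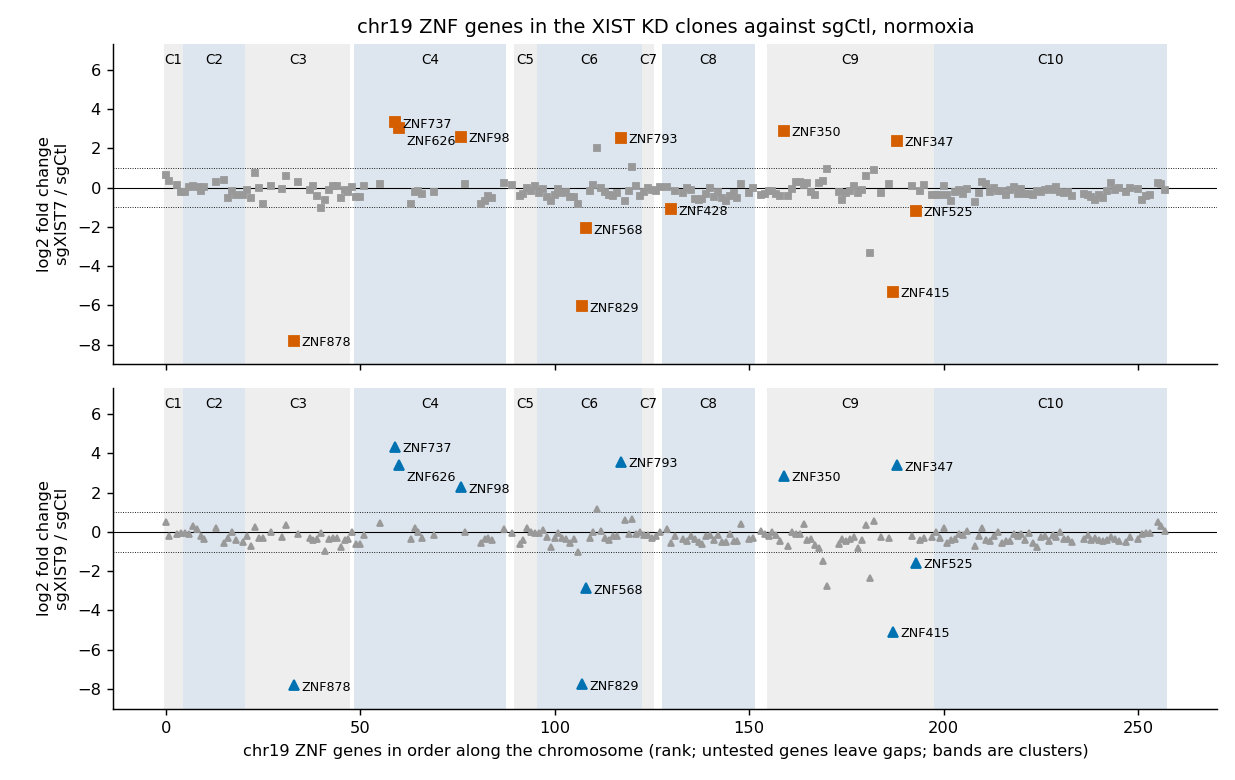
Fitted log2 fold change of each tested member in sgXIST7 (upper) and sgXIST9 (lower) against sgCtl in normoxia, with members ranked along chr19 and shaded bands for the clusters C1 to C10. Coloured and named points were called, grey points were not, and dotted lines mark a log2 fold change of 1 in size; values of ZNF878 and ZNF829 depend on the prior count, as KD libraries had 0 or 1 count.

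The up-regulated members were scattered over C4, C6 and C9. ZNF737 in C4 (chr19:20537992-20565781, 13 fingers) had 1.21, 0.696 and 0.0574 CPM in the sgCtl libraries, 6.23, 6.66 and 6.27 in sgXIST7 and 14.1, 11.4 and 13.1 in sgXIST9. All KD libraries were above all sgCtl libraries, and the sgCtl libraries themselves differed from each other, from 18 counts to 1. The log2 fold change was 3.32 ± 0.48 (SE; adjusted p = 6.17e-05) in sgXIST7 and 4.34 ± 0.48 (adjusted p = 2.99e-06) in sgXIST9. Its neighbour ZNF626 (chr19:20619939-20661596, 10 fingers), with the similar promoter, had 3.29, 1.31 and 0.689 CPM in sgCtl, 14.2, 13.4 and 14.8 in sgXIST7 and 18.4, 18.7 and 19 in sgXIST9. The groups did not overlap, and sgXIST9 lay above sgXIST7 in every library. Its log2 fold change was 3.01 ± 0.47 (adjusted p = 0.000137) and 3.42 ± 0.47 (adjusted p = 3.92e-05). The next members on either side, ZNF826P and ZNF66, had at most 1 count in any library.

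ZNF793 in C6 (chr19:37506939-37543333) had 1.74, 1.47 and 0.919 CPM in sgCtl, 7.87, 6.72 and 9.15 in sgXIST7 and 16.4, 14.7 and 17.6 in sgXIST9. The 3 clones formed 3 separate ranges, with sgXIST9 highest. The log2 fold change was 2.53 ± 0.31 (adjusted p = 1.13e-05) and 3.57 ± 0.31 (adjusted p = 2.25e-07). The members next to it, ZNF570 (-0.29 and -0.20) and ZNF540 (-0.69 and 0.59), were not called.

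In C9, ZNF350, known as ZBRK1 and as a DNA-binding partner of BRCA1, had 1.95, 0.928 and 0.344 CPM in sgCtl, 8.73, 6.44 and 8.06 in sgXIST7 and 8.17, 6.37 and 8.35 in sgXIST9. Both KD clones were above sgCtl and covered the same range, and their log2 fold change was 2.87 ± 0.57 (adjusted p = 0.00123) and 2.85 ± 0.57 (adjusted p = 0.00136). Without replicate 3 of sgCtl, the lowest library, the adjusted p was 0.0103 and 0.011, so that the call was lost in both. ZNF347 (chr19:53134935-53159060, 17 fingers) had 5.64, 2.94 and 1.84 CPM in sgCtl, 19.1, 17.2 and 17.6 in sgXIST7 and 37.8, 30.7 and 39.5 in sgXIST9. No libraries overlapped between the 3 clones, and its log2 fold change was 2.38 ± 0.42 (adjusted p = 0.00044) and 3.38 ± 0.43 (adjusted p = 1.4e-05). ZNF98 in C4 was also called, at 2, 3 and 2 counts in sgCtl, 21, 20 and 20 in sgXIST7 and 19, 10 and 16 in sgXIST9. Of the 50-base windows of its exons 38.05% occur once in hg38, the lowest share among members, so that its value is uncertain. Its call in sgXIST9 was lost without any 1 of the 6 libraries compared, with adjusted p-values of 0.0108 to 0.0493, and in sgXIST7 without replicate 1 or 3 of sgCtl or replicate 2 of sgXIST7 (0.0173, 0.0223 and 0.0101).

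The down-regulated members included some that were close to absent from the KD clones. ZNF878 in C3 (chr19:12043805-12052961, 14 fingers) had 15, 22 and 32 counts in sgCtl and 0 counts in each of the 12 KD libraries of both conditions. With a floor of 3 counts over the group, its normoxia level was lower by at least 32.6-fold in sgXIST7 (adjusted p = 0.00175) and by at least 29.7-fold in sgXIST9 (adjusted p = 0.0021). The member before it, ZNF433, had 4, 5 and 2 counts in sgCtl and 0 in each KD library in normoxia. The member after it, ZNF844, had 7, 3 and 5 counts in sgCtl, 11, 5 and 10 in sgXIST7 and 8, 4 and 6 in sgXIST9. ZNF829 in C6 (chr19:36888124-36916291, 9 fingers) had 25, 17 and 25 counts in sgCtl, 0, 0 and 1 in sgXIST7 and 0, 0 and 0 in sgXIST9. It was lower by a ratio of 94.9 in sgXIST7 (95% counting interval 16.5 to 3803) and at least 28.8-fold lower in sgXIST9, with adjusted p-values of 0.000101 and 7.41e-05.

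ZNF568, which starts 37 bases from ZNF829 and whose mouse counterpart silences a placental transcript of Igf2, had 2.21, 2.48 and 2.24 CPM in sgCtl, 0.432, 0.778 and 0.436 in sgXIST7 and 0.268, 0.266 and 0.409 in sgXIST9. All KD libraries were below all sgCtl libraries, by a log2 fold change of -2.08 ± 0.30 (adjusted p = 6.45e-05) and -2.87 ± 0.33 (adjusted p = 4.59e-06). Thus both genes of this head-to-head pair were down-regulated in normoxia. The outer neighbours of the pair, ZNF345 (-0.86 and -1.01, adjusted p = 0.0394 and 0.0175) and ZNF420 (-0.20 and -0.29), were not called.

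ZNF415 in C9 (chr19:53107879-53132920, 11 fingers) had 10.9, 7.81 and 9.47 CPM in sgCtl, 0.389, 0.167 and 0.131 in sgXIST7 and 0.357, 0.212 and 0.234 in sgXIST9. The groups lay far apart, from 101 to 165 counts in sgCtl against 3 to 9 in the KD clones, and the log2 fold change was -5.29 ± 0.44 (adjusted p = 1.67e-07) and -5.07 ± 0.44 (adjusted p = 2.04e-07). It lies between ZNF347, which was up-regulated, and ZNF160, which was not called (0.19 and -0.33). ZNF525, also in C9, fell from 12.4, 12.9 and 14.1 CPM in sgCtl to 5.62, 5.11 and 6.62 in sgXIST7 and 4.46, 3.88 and 4.96 in sgXIST9, by a log2 fold change of -1.18 ± 0.19 (adjusted p = 0.000173) and -1.57 ± 0.19 (adjusted p = 1.08e-05). ZNF428 in C8, a member with 1 finger, was called in sgXIST7 (-1.10 ± 0.14, adjusted p = 1.5e-05) and had -0.56 ± 0.14 (adjusted p = 0.00643) in sgXIST9. Of its exons 17.7% overlap SRRM5 on the opposite strand, and how the counting treated strand is not given in the sources used here.

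**Figure D3:**
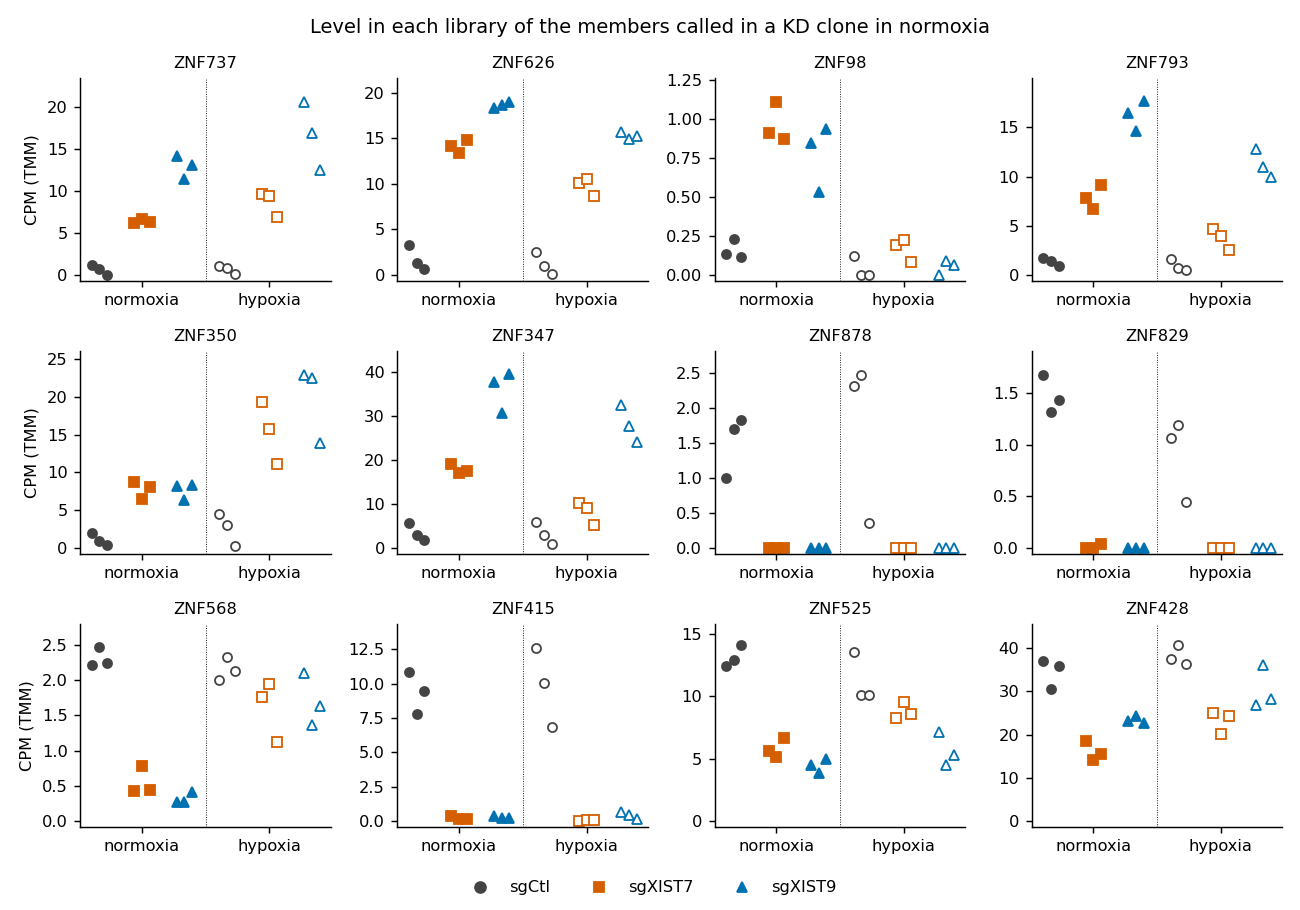
CPM (vertical axes, a linear scale that differs by panel) in each of the 18 libraries for the 12 members called in sgXIST7 or sgXIST9 in normoxia, with filled symbols for normoxia and open symbols for hypoxia. ZNF878 lies at 0 in all 12 KD libraries, ZNF568 is low in the KD clones in normoxia (0.266 to 0.778 CPM) and near sgCtl in hypoxia (1.12 to 2.10 CPM), and sgCtl replicate 3 is low for several of the up-regulated members.

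The KD clones were also compared with each other, as their residual XIST differed. No member was called between sgXIST7 and sgXIST9 in normoxia by edgeR, where 2.09% of all genes were higher and 1.31% lower in sgXIST7. The unadjusted p-value (edgeR) was under 0.05 for 33 members (16%), against 21.2% of all genes. DESeq2 called 3 members, and its share over all genes was not counted. The up-regulated members ZNF793 (-1.03), ZNF737 (-1.01) and ZNF347 (-1.0) had the lower fitted level in sgXIST7, with adjusted p-values of 0.0185, 0.106 and 0.113.

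The comparison of the clones in hypoxia uses other libraries of the same clones, so that it shows which differences were seen again. In sgXIST7, 4 of the 6 up-regulated members were called again (ZNF737, ZNF626, ZNF793 and ZNF350) and 3 of the 6 down-regulated members (ZNF878, ZNF829 and ZNF415). In sgXIST9, 5 of 6 (the same 4 and ZNF347) and 3 of 5 were called again. Of all genes called in normoxia, 67.2% of the up-regulated and 63.8% of the down-regulated ones were called again in sgXIST7, and 74.3% and 50.1% in sgXIST9. All 12 members in sgXIST7 and all 11 in sgXIST9 kept the direction of their fitted change, as did 92% to 97.4% of all genes called. ZNF737 had 1.06, 0.794 and 0.177 CPM in sgCtl, 9.60, 9.38 and 6.91 in sgXIST7 and 20.6, 17 and 12.6 in sgXIST9, again in 3 separate ranges. Its log2 fold change was 3.58 ± 0.46 (adjusted p = 1.53e-05) and 4.53 ± 0.47 (adjusted p = 1.51e-06). ZNF415 had 12.6, 10.0 and 6.82 CPM in sgCtl, 0, 0.0453 and 0.0863 in sgXIST7 and 0.638, 0.408 and 0.126 in sgXIST9. No KD library came near the sgCtl libraries, and in sgXIST7 2 counts were left of 481, a ratio of 277 (95% counting interval 76.2 to 2291; adjusted p = 3.43e-08). ZNF568 was not different in hypoxia at this threshold (-0.39 ± 0.28 and -0.34 ± 0.27).

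In all, 4 members were up-regulated in sgXIST7 in hypoxia, against 7.83% of all genes, and 19 down-regulated, against 6.19%. In sgXIST9, 5 were up-regulated, against 6.14%, and 6 down-regulated, against 3.39%. For sgXIST7, the down-regulated share of members was 9.22%, and for the ZNF genes of other chromosomes it was 8.97%. The summed level was 5552, 5275 and 4438 CPM in sgCtl, 4517, 4253 and 3793 in sgXIST7 and 4614, 4544 and 3978 in sgXIST9. In hypoxia the groups overlapped, as sgCtl replicate 3 lay below libraries of both KD clones. Within each replicate number, both KD clones lay below sgCtl. In hypoxia the numbers were taken to pair libraries only for sgXIST9 with sgCtl. For sgXIST7, same-numbered libraries correlated with sgCtl at 0.0013 to 0.42, so that its comparison by number has no such basis. Without the 3 hypoxia libraries of replicate 3, 27 and 13 members were called in the 2 comparisons. In fits of only the groups compared the counts were 7 and 4, and ZNF626 and ZNF350 were among the members no longer called in either clone.

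Among the members called in hypoxia only, ZNF473, a component of the U7 snRNP that processes histone pre-mRNA, was lower in both KD clones. It had 40.8, 58.2 and 27.8 CPM in sgCtl, 20.2, 16.6 and 11.7 in sgXIST7 and 20.9, 20.1 and 17.2 in sgXIST9. The groups did not overlap, and the log2 fold changes were -1.38 ± 0.21 (adjusted p = 8.74e-05) and -1.13 ± 0.21 (adjusted p = 0.00063). Without sgCtl replicate 2, the highest library, the sgXIST9 value was -0.83 and the call was lost. ZNF442 in C3 (-1.6 ± 0.23, adjusted p = 4.38e-05), ZNF850 in C6 (-1.56 ± 0.29, adjusted p = 0.000498) and ZNF675, a TRAF6-binding inhibitor in C4 (-1.07 ± 0.17, adjusted p = 9.37e-05), were called in sgXIST7, where cluster C3 had all 21 tested members below sgCtl and 5 of them called. In sgXIST9, 20 of these 21 were lower and 2 called. Of all 14938 genes, 7648 were lower in sgXIST7 and 7631 in sgXIST9, and 6.19% and 3.39% were called down-regulated. C8 leaned the same way, with 20 of 21 tested members lower and 1 called in sgXIST7, and 18 lower and 0 called in sgXIST9. Without the hypoxia libraries of replicate 3, where 22 members of C3 were tested, 19 were lower and 4 called in sgXIST7, and 18 were lower and 2 called in sgXIST9.

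The response to hypoxia was measured within each clone, and these 3 comparisons share no library. In sgCtl, 6 members were up-regulated, against 11.3% of all genes, and 11 down-regulated, against 8.49%. In sgXIST7, 12 were up-regulated, against 15.1%, and 19 down-regulated, against 12.2%. In sgXIST9, 20 were up-regulated, against 14.7%, and 11 down-regulated, against 8.58%. The shares of members (2.91%, 5.83% and 9.71% up, 5.34%, 9.22% and 5.34% down) were below those of all genes in each clone and direction. No member was called in opposite directions in 2 clones, 6 were up-regulated and 6 down-regulated in all 3, and 21 and 22 were called in at least 1 clone. The calls shared between clones were not counted over all genes, so that these numbers do not set the members apart from other genes. Without the 3 hypoxia libraries of replicate 3, 25, 33 and 38 members were called, in place of 17, 31 and 31.

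**Figure D4:**
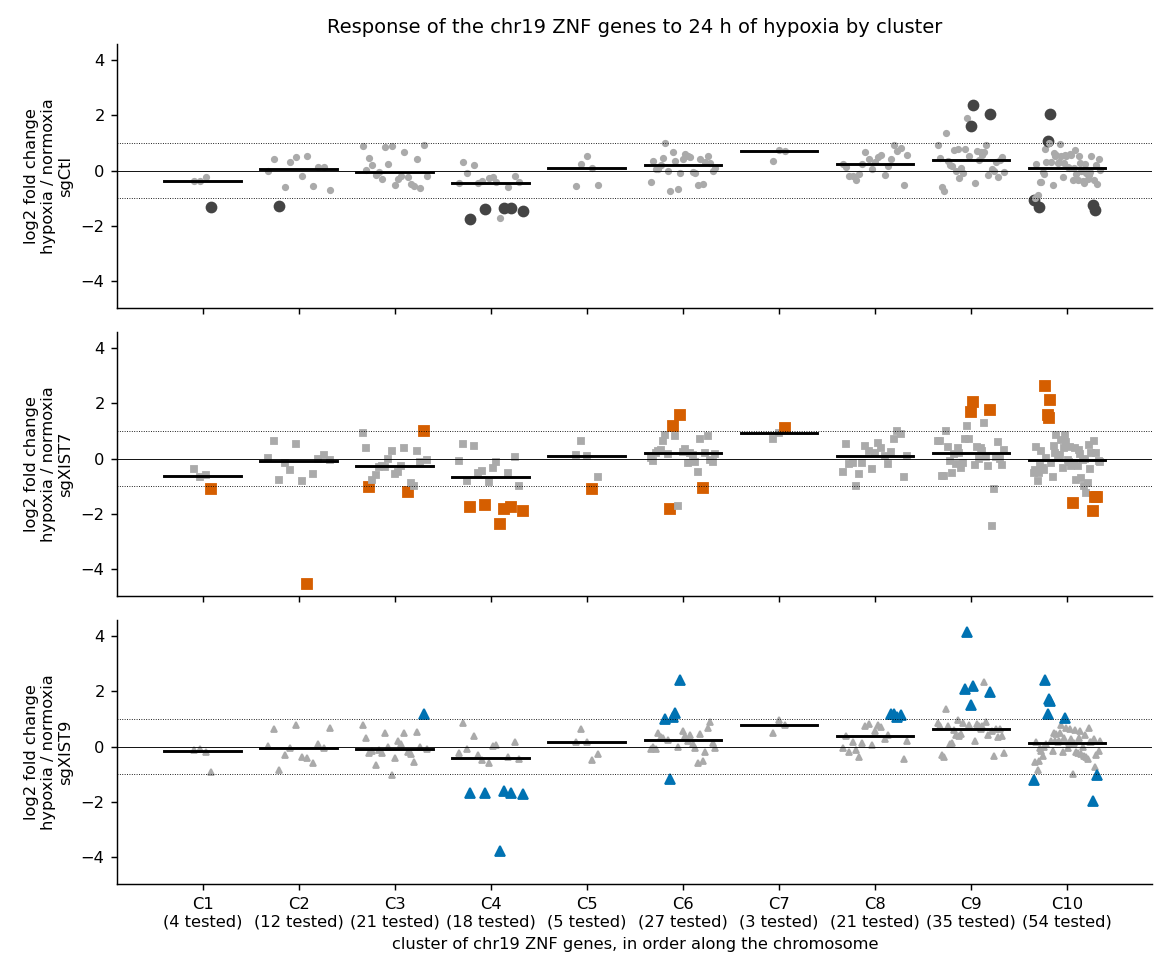
Fitted log2 fold change of hypoxia against normoxia (vertical axis) for the tested members of clusters C1 to C10, in sgCtl (upper), sgXIST7 (middle) and sgXIST9 (lower). Coloured symbols were called, grey symbols were not, and black lines are cluster medians; C4 has no up-regulated and C9 no down-regulated member in any clone.

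Calls by cluster were counted next, and the difference between clusters was not tested. In C4, 0 of 18 tested members were up-regulated and 5, 6 and 6 were down-regulated in sgCtl, sgXIST7 and sgXIST9 (edgeR), with median log2 fold changes of -0.44, -0.67 and -0.41. The down-regulated shares were 27.8%, 33.3% and 33.3%, against the 8.49%, 12.2% and 8.58% of all genes. The unadjusted p-value was under 0.05, in either direction, for 55.6%, 72.2% and 61.1% of the 18, against 56.9%, 63.1% and 60% of all genes. Without the hypoxia libraries of replicate 3, the numbers called were also 0 up and 5, 6 and 6 down, with medians of -0.42, -0.62 and -0.30. The summed level of C4 fell from 467, 470 and 478 CPM in sgCtl in normoxia to 349, 324 and 295 in hypoxia. In sgXIST7 it went from 392, 372 and 388 to 281, 258 and 231, and in sgXIST9 from 450, 403 and 443 to 351, 311 and 292. The conditions did not overlap in any clone. In C9, 3, 3 and 5 of 35 members were up-regulated and 0 down-regulated (edgeR), with medians of 0.40, 0.21 and 0.65. The up-regulated shares of 8.57%, 8.57% and 14.3% were below the 11.3%, 15.1% and 14.7% of all genes, and the unadjusted p-value was under 0.05 for 42.9%, 45.7% and 60% of the 35. Without the hypoxia libraries of replicate 3, 6, 4 and 10 were up-regulated and 0, 1 and 0 down-regulated, with medians of 0.62, 0.32 and 0.83. The sum of C9 went from 567, 540 and 532 CPM to 875, 796 and 611 in sgCtl, from 525, 505 and 521 to 712, 686 and 583 in sgXIST7 and from 492, 435 and 479 to 795, 727 and 635 in sgXIST9. No library of one condition reached the other, but this rested on ZNF160 in 2 clones. With ZNF160 left out, a choice made after seeing the data, the sum was 525, 501 and 488 CPM in normoxia and 693, 636 and 436 in hypoxia in sgCtl, and 482, 448 and 478 against 567, 531 and 399.5 in sgXIST7. In both clones replicate 3 in hypoxia then lay below all normoxia libraries. In sgXIST9 the sum without ZNF160 was 458, 403 and 444 against 657, 617 and 488, and the conditions stayed apart. The sum of C4 without ZNF91, its highest member, was 372 to 391 CPM against 221 to 269 in sgCtl, and the conditions stayed apart in all 3 clones. C10, the largest cluster, had calls in both directions, 2, 4 and 5 up and 4, 4 and 3 down of 54.

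Of the 6 members down-regulated in all 3 clones, 5 lay in C4 (ZNF682, ZNF714, ZNF492, ZNF724 and ZNF254) and 1, ZNF8, in C10. ZNF714 had 49.2, 45.6 and 47.7 CPM in normoxia and 17.6, 18.1 and 18.3 in hypoxia in sgCtl. In sgXIST7 it had 42.1, 36.8 and 42.1 against 12.5, 11.5 and 14.2, and in sgXIST9 56.2, 51.5 and 56.8 against 18.6, 17.2 and 16.2. The conditions were far apart and the replicates close, and the log2 fold change was -1.40 ± 0.10, -1.67 ± 0.11 and -1.66 ± 0.10 (adjusted p = 2.24e-08, 1.83e-09 and 2.46e-09).

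ZNF254 fell from 21.6, 22.6 and 23.1 CPM to 8.88, 8.88 and 6.20 in sgCtl, from 26.4, 28.7 and 23.6 to 6.16, 7.43 and 7.51 in sgXIST7 and from 25, 23.1 and 25.2 to 7.70, 7.90 and 6.56 in sgXIST9. Its log2 fold change was -1.48 ± 0.15, -1.90 ± 0.15 and -1.72 ± 0.15. The other 3 of C4 fell by similar amounts in the 3 clones, ZNF682 with -1.75, -1.74 and -1.66, ZNF724 with -1.34, -1.74 and -1.67, and ZNF492, of whose windows 53.4% were unique, with -1.37, -1.83 and -1.6. ZNF8 went from 29.3, 33.3 and 30.5 CPM to 12.2, 11.8 and 15.5 in sgCtl, with log2 fold changes of -1.24 ± 0.16, -1.88 ± 0.16 and -1.95 ± 0.17 in the 3 clones. Of its exons 20.7% are shared with a read-through transcript on the same strand.

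ZNF160 in C9 was the up-regulated member with the highest level. It had 42.4, 39.8 and 44.1 CPM in normoxia and 182, 160 and 175 in hypoxia in sgCtl. In sgXIST7 it had 42.5, 57.4 and 43.7 against 145, 155 and 183, and in sgXIST9 34.1, 31.8 and 34.5 against 139, 110 and 147. Each hypoxia library was above each normoxia library of its clone, and the log2 fold change was 2.03 ± 0.14, 1.75 ± 0.13 and 1.98 ± 0.14 (adjusted p = 5.91e-09, 1.3e-08 and 5.49e-09). Its direct neighbour ZNF415 had 0.07 ± 0.32 in sgCtl. In sgXIST7 ZNF415 went from 15 counts over the group in normoxia to 2 in hypoxia (-2.45, not called). Without the hypoxia libraries of replicate 3 it was called there (-3.0, edgeR, adjusted p = 0.00686). In sgXIST9 the conditions overlapped for ZNF415.

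ZNF470 in C10 went from 11.6, 12.5 and 12.5 CPM to 50.4, 39.3 and 63.4 in sgCtl, from 9.69, 11.3 and 10.5 to 39.5, 66.0 and 31.8 in sgXIST7 and from 9.77, 6.80 and 9.75 to 30.2, 21.8 and 31.0 in sgXIST9. Its log2 fold change was 2.06 ± 0.24, 2.13 ± 0.24 and 1.65 ± 0.24, with more spread between hypoxia libraries than in normoxia. ZNF667, known as Mipu1 from work on ischemic heart, lies in the same stretch of C10 and had 17.6, 14.9 and 15.8 CPM against 31.9, 32.2 and 36.6 in sgCtl, with log2 fold changes of 1.06 ± 0.13, 1.6 ± 0.13 and 1.20 ± 0.13 in the 3 clones. In sgCtl its value lay at the threshold and was 0.995 without sgCtl replicate 3 in hypoxia, also without all 3 hypoxia libraries of replicate 3, and 0.998 without sgCtl replicate 2 in normoxia. ZNF471, between the 2, had 0.99 ± 0.19 (not called), 1.46 ± 0.18 and 1.72 ± 0.19. Its sgCtl value also lay at the threshold and passed it under 10 of 15 alternatives (1.01 to 1.26).

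The other members up-regulated in all 3 clones were ZNF333, ZNF701 and the pseudogene ZNF137P. ZNF333 had log2 fold changes of 1.24 ± 0.18, 1.47 ± 0.17 and 1.21 ± 0.17, and 17.1% of its exons overlap ADGRE2 on the opposite strand. ZNF701 and ZNF137P, neighbours in C9, were low in normoxia (10 to 27 and 2 to 7 counts) and had 22 to 92 and 8 to 50 counts in hypoxia. In none of the 3 clones did the conditions overlap for ZNF137P, with log2 fold changes of 2.36 ± 0.46, 2.05 ± 0.45 and 2.21 ± 0.47.

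**Figure D5:**
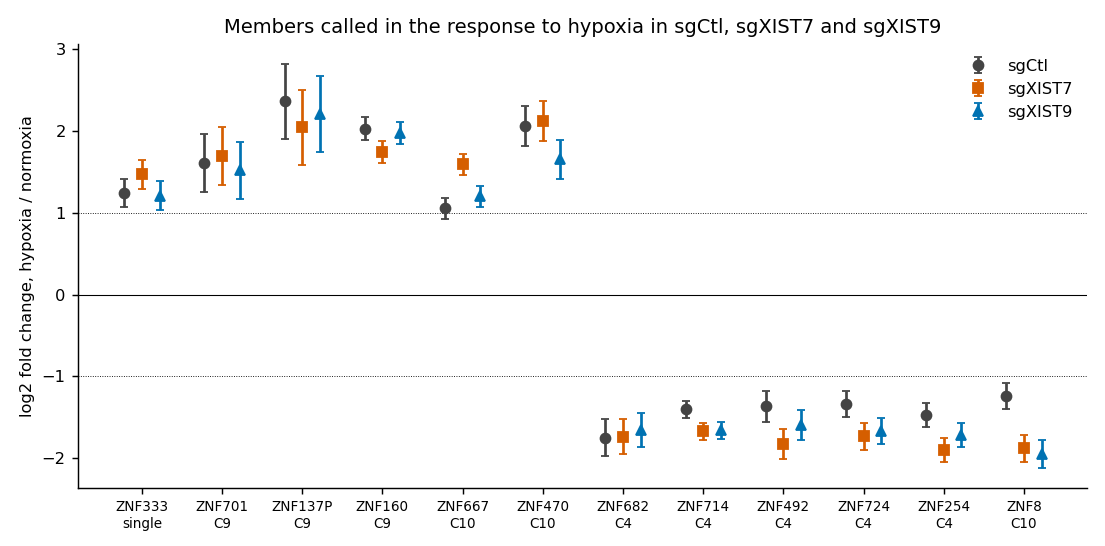
Fitted log2 fold change of hypoxia against normoxia with SE (vertical axis) of the 12 members called in sgCtl, sgXIST7 and sgXIST9, with their cluster under the name. The 6 up-regulated members lie between 1.06 and 2.36 and the 6 down-regulated members between -1.95 and -1.24, and 5 of the latter are in C4.

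Some responses were called in 1 or both KD clones and not in sgCtl. ZNF582 in C10 had 4 to 5 counts in sgCtl in normoxia and 4 to 11 in hypoxia. In sgXIST7 it went from 6, 2 and 3 counts to 28, 25 and 8, and in sgXIST9 from 4, 3 and 3 to 26, 25 and 7, and the log2 fold change was 2.62 ± 0.45 (adjusted p = 8.72e-05) and 2.41 ± 0.46 (adjusted p = 0.000274). The difference from the sgCtl response was 1.82 ± 0.68 and 1.62 ± 0.68 and did not pass the test (adjusted p = 0.0954 and 0.18). In C8, the neighbours ZNF233, ZNF235, ZNF112 and ZNF285, singled out after their values were seen, were called up-regulated in sgXIST9 (1.18, 1.17, 1.06 and 1.13). Their values in sgCtl were 0.42, 0.92, 0.70 and 0.83, and 0 of the 21 tested members of C8 were called for the difference of response in sgXIST9. In sgXIST7 0 of the 21 were called, and ZNF112 had 0.99, or 1.12 and called without the hypoxia libraries of replicate 3. The down-regulation of ZNF473 was also called in both KD clones, with -1.43 ± 0.21 and -1.40 ± 0.21, and its sgCtl value was -0.37 ± 0.21. Its differences of response were -1.06 ± 0.29 and -1.03 ± 0.29 and missed the threshold (adjusted p = 0.0346 and 0.0508).

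The test of the difference in the response to hypoxia called 1 member for each KD clone. For sgXIST7, 0 members were higher, against 0.904% of all genes, and 1 was lower, against 0.616%. For sgXIST9, 1 was higher, against 0.663%, and 0 were lower, against 0.348%. DESeq2 called 4 and 3 members, and its shares over all genes were not counted. The unadjusted p-value (edgeR) was under 0.05 for 37 and 28 members (18% and 13.6%), against 26.7% and 21.5% of all genes. Without the 3 hypoxia libraries of replicate 3, 7 and 4 were called by edgeR.

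ZNF568 was the member called for sgXIST9. In hypoxia it had 2.0, 2.33 and 2.13 CPM in sgCtl, 1.77, 1.95 and 1.12 in sgXIST7 and 2.10, 1.36 and 1.64 in sgXIST9. In the KD clones this was above each normoxia library of the same clone, whereas in sgCtl both conditions covered about the same range. The response was -0.10 ± 0.27 in sgCtl, 1.59 ± 0.30 (adjusted p = 0.000244) in sgXIST7 and 2.43 ± 0.33 (adjusted p = 9.52e-06) in sgXIST9, and the difference from sgCtl was 1.69 ± 0.41 (adjusted p = 0.0178) and 2.52 ± 0.43 (adjusted p = 0.00332). Without 1 of 5 single libraries the latter adjusted p was 0.0112 to 0.0164 and the call was lost. Its head-to-head neighbour ZNF829 stayed at 0 counts in all 6 KD libraries in hypoxia, against 17, 24 and 5 in sgCtl. ZNF426 in C2, the member called for sgXIST7, had 5, 4 and 11 counts in sgCtl in normoxia and 12, 13 and 5 in hypoxia, and 12, 11 and 14 counts in sgXIST7 in normoxia and 1, 0 and 0 in hypoxia. The fall in sgXIST7 was a ratio of 31.5 (95% counting interval 5.32 to 1278; adjusted p = 2.35e-05), and the difference from sgCtl was -5.06 ± 0.83 (adjusted p = 0.00238), or -4.49 (adjusted p = 0.0133) without sgXIST7 replicate 2 in hypoxia. Without the hypoxia libraries of replicate 3, the differences were 1.87 (adjusted p = 0.00377) for ZNF568 in sgXIST7, 2.54 (adjusted p = 0.00103) in sgXIST9 and -4.95 (adjusted p = 0.000956) for ZNF426 in sgXIST7, and all 3 were called.

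Promoters of the members were read from RefSeq (GRCh38.p14) as 250 bases before to 50 after the start, for 216 of the 258 members. They held a median of 20 CpG, where all 27305 promoters held 13. The 2 sides were not picked alike. For a member the promoter nearest to its start in the counts was taken, and for all genes the one with the lowest coordinate. The contrasts with all promoters, here and for the motifs below, may partly reflect this choice, which was not tested. For 208 of the 216 members the promoter started within 500 bases of the start in the counts. For ZNF254, 1 of the 6 members down-regulated in hypoxia in all 3 clones, it lay 53782 bases away. The 29 promoters of C4 stood out with a median of 10 CpG and at most 18, and those of C9 had a median of 25. The 6 members down-regulated in hypoxia in all 3 clones had a median of 12 CpG and the 5 up-regulated ones with a promoter had 26. As the former lie mostly in C4, cluster and CpG content cannot be told apart here. The motifs ACGTG and GCGTG, the forms of the core of the hypoxia response element, were searched on both strands. ACGTG occurred in 17.6% of the promoters of members and 21.4% of all promoters. It was in 1 of 5 promoters of the up-regulated members and 0 of 6 of the down-regulated members. GCGTG was in 50.5% of the promoters of members and 35.9% of all, and in 2 of 5 and 3 of 6 of these groups. On 1 strand a position can match only 1 of these motifs.

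The proteins that work with KRAB were given by a list of 20 genes, all tested. In normoxia 0 were called in either KD clone (edgeR), and the median log2 fold change was -0.05 and -0.07. The unadjusted p-value was under 0.05 for 8 and 3 of them (40% and 15%), against 32.4% and 32.3% of all genes. TRIM28, the corepressor, had -0.14 (adjusted p = 0.436) and -0.01 (adjusted p = 0.963), and SETDB1 0.23 and 0.16. In hypoxia against normoxia 3, 4 and 4 of the 20 were down-regulated in sgCtl, sgXIST7 and sgXIST9 (15%, 20% and 20%, against 8.49%, 12.2% and 8.58% of all genes) and 0, 0 and 1 up-regulated. The up-regulated shares were at most 5%, against 11.3%, 15.1% and 14.7%. Without the hypoxia libraries of replicate 3 these numbers were 4, 3 and 4 down and 0, 1 and 1 up. Those down-regulated in all 3 were ATF7IP, a partner of SETDB1 (-1.46, -2.04 and -1.69), DNMT1, the maintenance DNA methyltransferase (-1.04, -1.76 and -1.62), and UHRF1, which guides it to DNA (-1.74, -2.69 and -2.44). CHD4 was also called in both KD clones, and no longer in sgXIST7 (-0.94) without those libraries. Of 14 zinc finger genes of chr19 with other symbols, such as ZFP30 and ZSCAN18, 8 were tested and 0 called in the KD clones in normoxia (edgeR). Their median log2 fold changes were -0.12 and -0.21. The unadjusted p-value was under 0.05 for 4 and 3 of the 8 (50% and 37.5%), against 32.4% and 32.3% of all genes. In hypoxia against normoxia 1, 1 and 2 of the 8 were up-regulated (12.5%, 12.5% and 25%, against 11.3%, 15.1% and 14.7% of all genes) and 0 down-regulated. These shares rest on 1 or 2 genes. MZF1 was up-regulated in all 3 clones (1.41, 1.73 and 1.32).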

How the data were processed

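Total RNA of OVCAR3-KRAB cells was sequenced after rRNA depletion with a stranded kit, in 6 groups of 3 libraries. The authors used Trimmomatic for trimming, HISAT2 for alignment (hg38) and featureCounts, and deposited raw counts per gene. Versions and the settings for strand and multi-mapped reads are not given in the sources used here, so that close copies and overlapping genes are uncertain. Of 28279 lines in the deposited table, 2 were broken, held no counts and were left out.

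The members and gene lists were chosen with earlier results of these data known. Counts were scaled by TMM (factors 0.859 to 1.115) and fitted over all 6 groups with edgeR 4.0.16 (R 4.3.3, robust quasi-likelihood test, prior count 0.125) after filterByExpr with a minimum count of 10, which kept 14938 genes. Benjamini-Hochberg adjustment ran over these genes, and a gene was called at an adjusted p-value under 0.01 and a log2 fold change above 1 in size. CPM, counts scaled to a common library size, use the TMM scaling, and CPM of different genes were compared only per kb of exon. Errors of fold changes are SE, and counting intervals are exact 95% intervals that cover counting error only. Depth had a median of 17629433.5 counts per library. Named genes were members called in both KD clones in normoxia, up to 6 called members per comparison and direction with the largest change and no overlap between libraries, the highest member per cluster, members known from earlier work and the neighbours of the first set. Promoters came from RefSeq, printed stretches and the search for windows that occur once from hg38, and fingers from GENCODE transcripts. Same-numbered libraries of all 3 numbers correlated over 0.1 in 2 of the comparisons, sgXIST7 against sgCtl in normoxia (0.22 to 0.49) and sgXIST9 against sgCtl in hypoxia (0.23 to 0.59), where the numbers were taken to pair the libraries. Different-numbered libraries correlated at -0.38 to 0.18 and -0.57 to 0.30 in these, so that in hypoxia the ranges overlapped and the pairing is uncertain. The main fit, which gave the p-values in Results, had no replicate block. The alternatives were DESeq2 1.42.0, other scalings and filters, a fit of only the groups compared, a replicate block, a looser threshold, leaving out libraries, and members with at least 90% of windows unique.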

Additional observations from a re-analysis of the deposited data

Results flagged for a closer look

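The response to hypoxia of ZNF426 differed between sgXIST7 and sgCtl by the test of that difference, with a value of -5.06 ± 0.83 on the log2 scale (edgeR, adjusted p = 0.00238). It rests on 1, 0 and 0 counts in the sgXIST7 hypoxia libraries against 12, 11 and 14 in normoxia, and the fitted value depends on the prior count. Without sgXIST7 replicate 2 in hypoxia it was -4.49 (adjusted p = 0.0133). The response of ZNF568 differed between sgXIST9 and sgCtl by 2.52 ± 0.43 (edgeR, adjusted p = 0.00332), as its level was lower in sgXIST9 than in sgCtl in normoxia and not called as different in hypoxia. The adjusted p was 0.0112 to 0.0164 without 1 of 5 single libraries.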

How the results depend on the processing

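The number of members called in normoxia was 12 in sgXIST7 and 11 in sgXIST9, and leaving out 1 library gave 10 to 12 and 9 to 10. Between the KD clones in normoxia, where none was called, leaving out 1 library gave 0 to 0, DESeq2 called 3, the replicate block 1, fitting the compared groups alone 2 and an adjusted p under 0.05 called 5. In hypoxia, 23 and 11 were called in sgXIST7 and sgXIST9, 18 to 31 and 10 to 15 without 1 library, and 7 and 4 with the compared groups fitted alone. The response to hypoxia had 17, 31 and 31 calls in sgCtl, sgXIST7 and sgXIST9, and 17 to 24, 30 to 35 and 28 to 34 without 1 library. The difference of response had 1 call for each clone. For sgXIST7 it had 4 with DESeq2, 0 with a mean CPM of at least 1, 7 without the hypoxia libraries of replicate 3, 6 at an adjusted p under 0.05 and 0 to 6 without 1 library. For sgXIST9 these were 3 with DESeq2, 4 without those libraries, 2 at an adjusted p under 0.05 and 0 to 4 without 1 library. The causes of these differences were not tested. Same-numbered libraries correlated between groups at -0.11 to 0.59 (median 0.07), with 18 of 45 pairs over 0.1. With the replicate block 13 and 11 members were called in normoxia, 26 and 12 in hypoxia, and 20, 36 and 35 for the response to hypoxia. In the 2 comparisons taken as paired, the block kept all 12 and 11 calls and added ZNF320 (-3.27, adjusted p = 0.00788) in sgXIST7 in normoxia and ZNF525 (-1.0, adjusted p = 0.000555) in sgXIST9 in hypoxia. Of 87 called results for named genes, 10 lost the call without 1 library, and ZNF471 in sgCtl (0.994) passed the threshold under 10 of 15 alternatives (1.01 to 1.26), DESeq2 (1.02) and the block (1.01) among them. Members with at least 90% of windows unique gave 10 and 9 calls in normoxia, as ZNF737 (88.3%) and ZNF98 (38.05%) fell under this limit. Low counts limit ZNF98, ZNF426, ZNF582, ZNF829 and ZNF878.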
